A study of Homo sapiens with 4 samples.

Results

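Chemokine mRNA was followed in IFN‐γ treated SNU638 cells, an established human gastric cancer (GC) cell line. The members were 10 chemokine genes picked by symbol out of the 46427 genes in the deposited count table. They fall into 3 CXCR3 ligands (CXCL9, CXCL10 and CXCL11), 4 neutrophil-attracting chemokines (CXCL1, CXCL2, CXCL3 and CXCL8) and 3 CC chemokines (CCL2, CCL5 and CCL20). All of the cells spent 24 h without serum and then received IFN‐γ at 10 ng/ml, and no untreated cells were among the libraries. The sample labels give 8 h of IFN‐γ while the legends of the study give a longer time, so the length of exposure is not settled here. The groups were control cells and YTHDF1‐overexpressed cells, with 2 libraries each, numbered 1 and 2 as biological replicates. YTHDF1 was introduced on a plasmid by transient transfection, and the labels do not say that replicates came from separate cultures, so p-values measure the spread between these libraries, which may be partly technical.

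Chemokines are small secreted proteins that attract leukocytes along a gradient. CXCL9, CXCL10 and CXCL11 bind CXCR3, a receptor of activated T cells and natural killer cells, and are known as genes that IFN‐γ induces through JAK kinases and IRF1. CXCL1, CXCL2, CXCL3 and CXCL8 bind CXCR2, attract neutrophils and are known targets of NF‐κB, and several of their messages carry AU-rich elements that shorten mRNA half-life. CCL2 attracts monocytes through CCR2, CCL5 attracts T cells and monocytes, and CCL20 attracts CCR6-bearing lymphocytes and dendritic cells. YTHDF1 is a cytoplasmic protein that binds mRNA methylated at N6-adenosine.

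The 7 CXC members lie in 2 groups on chromosome 4 (GRCh38 positions from RefSeq GRCh38.p14). The neutrophil-attracting genes lie within chr4:73740569-74099195, a span of 359 kb, and the CXCR3 ligand genes within chr4:76001275-76036070, a span of 34.8 kb. CCL2 and CCL5 are on chromosome 17 and CCL20 is on chromosome 2. For the CXC members, part of the stretch before the start site is shown, and it holds every match found in that gene. The part shown differs between the classes. The 250 bases before the start, taken from RefSeq for 8 of the 10 members (not for CCL2 and CCL5), were searched on both strands for the IFN‐γ activated site TTCNNNGAA, the interferon-stimulated response element core (GAAA, any 2 bases, GAAA) and the kappaB consensus. Bases are counted back from the base before the start, which is −1, and capitals mark a match.

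For the CXCR3 ligands, bases −250 to −101 are shown, and all 3 genes are on the minus strand, at chr4:76007610-76007759 for CXCL9, chr4:76023598-76023747 for CXCL10 and chr4:76036171-76036320 for CXCL11.
CXCL9: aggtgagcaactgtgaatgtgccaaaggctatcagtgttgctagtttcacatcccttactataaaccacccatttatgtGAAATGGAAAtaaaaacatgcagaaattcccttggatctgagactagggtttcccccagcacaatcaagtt
CXCL10: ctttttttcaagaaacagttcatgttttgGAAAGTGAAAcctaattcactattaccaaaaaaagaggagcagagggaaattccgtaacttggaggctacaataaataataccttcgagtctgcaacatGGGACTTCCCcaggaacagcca
CXCL11: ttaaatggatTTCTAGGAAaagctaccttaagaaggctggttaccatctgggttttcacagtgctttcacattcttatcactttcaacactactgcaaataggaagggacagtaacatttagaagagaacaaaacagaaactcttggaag

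CXCL9 and CXCL10 held the response element core, at −171 to −162 and at −221 to −212. CXCL10 also held the kappaB consensus at −122 to −113, and CXCL11 held the activated site at −240 to −232. The first motif was present in 3.02%, the kappaB consensus in 6.88% and the activated site in 6.57% of the 35116 promoters of the table.

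For the neutrophil-attracting chemokines, bases −100 to −1 are shown, with CXCL1 (chr4:73869293-73869392) and CXCL8 (chr4:73740469-73740568) on the plus strand and CXCL2 (chr4:74099196-74099295) and CXCL3 (chr4:74038690-74038789) on the minus strand.
CXCL1: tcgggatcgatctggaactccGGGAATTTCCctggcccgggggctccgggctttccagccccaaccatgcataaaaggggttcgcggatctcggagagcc
CXCL2: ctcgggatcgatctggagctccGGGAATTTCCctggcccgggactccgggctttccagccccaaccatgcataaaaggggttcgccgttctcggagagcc
CXCL3: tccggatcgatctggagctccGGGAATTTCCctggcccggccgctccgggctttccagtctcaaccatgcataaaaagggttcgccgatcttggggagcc
CXCL8: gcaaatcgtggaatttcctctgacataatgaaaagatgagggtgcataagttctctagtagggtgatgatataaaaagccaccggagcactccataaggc

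CXCL1, CXCL2 and CXCL3 held the same kappaB letters, at −79 to −70 in CXCL1 and CXCL3 and 1 base nearer the start in CXCL2. None of the motifs was found in the CXCL8 window, but the search counted full matches only. The letters tggaatttcc in that window differ from the CXCL1 match in the first base alone. In CXCL10 and CXCL11 the letters gggaaattcc also differ from the CXCL1 match in 1 base, the CXCL11 stretch lying outside the part shown. In CXCL9 the letters agaaattccc, read on the other strand, do so too. Such near matches thus occurred in both classes, and they were not counted over all promoters. Position by position, CXCL1 and CXCL3 shared 90 of these 100 bases, while CXCL8 shared 30 to 33 with the other genes of its class. CCL20 held the kappaB consensus on the minus strand at −79 to −70. A match describes letters and is no evidence that a factor bound there, and the lack of a match is no evidence that none did.

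The libraries held 57398137 to 60864942 counts. YTHDF1 stood at 82.2 and 80.3 CPM (counts relative to library size after TMM scaling) in control replicates 1 and 2 and at 16489 and 2627 CPM in YTHDF1 replicates 1 and 2, so the excess differed between the YTHDF1 libraries. A count of 0 allows up to 3 counts, or 0.0497 to 0.0529 CPM, and such limits cover counting error only. Libraries with the same replicate number resembled each other more than replicates of a group did, with Pearson's r across genes on log2 CPM of 0.997 to 0.998 against 0.955 to 0.956 (genes are not independent replicates). Every chemokine is therefore given in each library, by vector and by replicate number. The number is a name only and stands for no condition of the study.

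The CXCR3 ligands were all detected, and each was higher in both libraries numbered 2 than in both libraries numbered 1. CXCL9 stood at 1.06 and 2.22 CPM in control replicates 1 and 2 and at 0.849 and 2.00 CPM in YTHDF1 replicates 1 and 2. CXCL10 stood at 3.67 and 11.6 CPM in control replicates 1 and 2 and at 4.25 and 10.8 CPM in YTHDF1 replicates 1 and 2. CXCL11 stood at 1.60 and 6.10 CPM in control replicates 1 and 2 and at 1.14 and 6.29 CPM in YTHDF1 replicates 1 and 2. For all 3 genes the vector groups overlapped and the replicate numbers did not. The share of all genes with this pattern was not counted, and libraries of a number resembled each other across all genes too. These values rest on 50 to 126 counts for CXCL9, 218 to 659 for CXCL10 and 67 to 380 for CXCL11.

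The neutrophil-attracting chemokines showed the same order of libraries at higher levels. CXCL8, the most abundant member, stood at 80.1 and 160.2 CPM in control replicates 1 and 2 and at 92.1 and 162.6 CPM in YTHDF1 replicates 1 and 2. CXCL1 stood at 22.9 and 44.1 CPM in control replicates 1 and 2 and at 23.5 and 48.0 CPM in YTHDF1 replicates 1 and 2. Both genes differed less between the vectors than between the replicate numbers. CXCL3 stood at 3.82 and 7.98 CPM in control replicates 1 and 2 and at 4.74 and 8.58 CPM in YTHDF1 replicates 1 and 2. CXCL2 stood at 1.36 and 2.05 CPM in control replicates 1 and 2 and at 1.56 and 2.78 CPM in YTHDF1 replicates 1 and 2. The 4 genes overlapped between the vectors and not between the replicate numbers, a pattern whose share over all genes was not counted. The transcripts of CXCL1 and CXCL2 share an identical run of 77 bases, those of CXCL2 and CXCL3 one of 97 bases and those of CXCL1 and CXCL3 one of 55 bases, so how reads were split among these 3 genes is uncertain.

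Of the CC chemokines, CCL5 alone had more than 12 counts in any library. CCL5 stood at 1.23 and 2.63 CPM in control replicates 1 and 2 and at 0.798 and 2.96 CPM in YTHDF1 replicates 1 and 2, higher in both libraries numbered 2. CCL20 had 0 and 10 counts in control replicates 1 and 2 and 8 and 12 counts in YTHDF1 replicates 1 and 2. CCL2 had 0 counts in all 4 libraries, which allows no more than the 3 counts given above in each. CCL2 failed the filter on low counts, so 9 of the 10 members were tested.

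**Figure D1:**
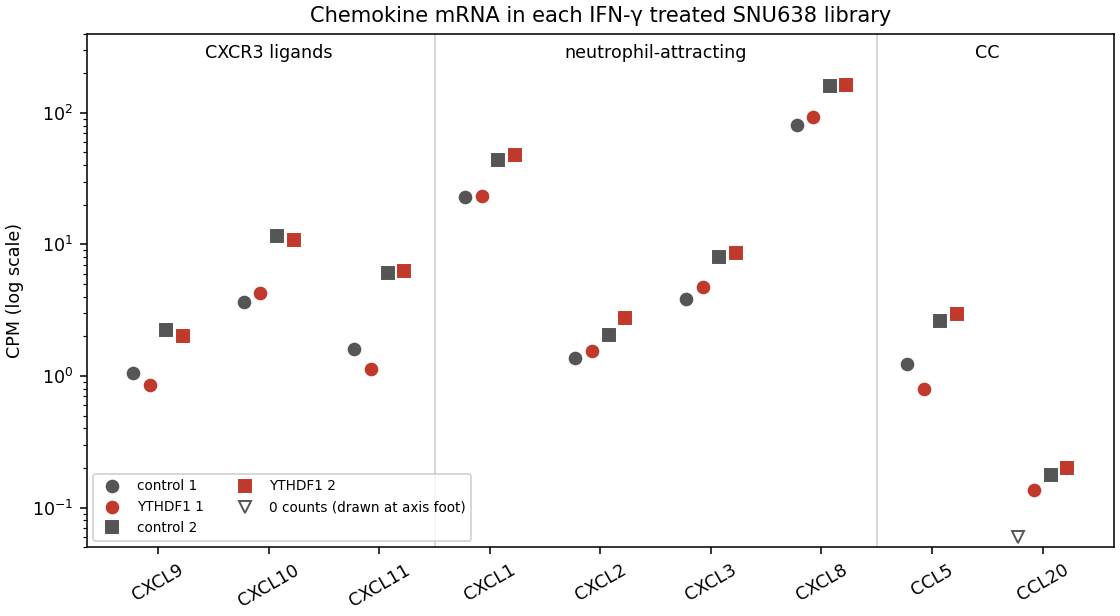
CPM (log axis) of 9 chemokines in each library, with control in grey, YTHDF1 in red, replicate 1 as circles and replicate 2 as squares; CCL2, at 0 in all libraries, is left out. The squares lie above the circles for every gene, and the grey and red symbols of a number lie close together except for CCL20, which had 0 counts in control replicate 1 (open triangle).

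Scaled to transcript length, CXCL8 had the highest mean level, at 72.6 CPM per kb (range 47.0 to 95.4 over the 4 libraries). CXCL1 followed at 31.6, CXCL10 at 6.44, CXCL3 at 5.84, CXCL11 at 2.35, CXCL2 at 1.59, CCL5 at 1.39, CXCL9 at 0.559 and CCL20 at 0.152 CPM per kb. CXCL8 exceeded CXCL1, and CXCL1 exceeded CXCL10, in 4 of 4 libraries. CXCL10 was above CXCL3, and CXCL11 above CXCL2, in 2 of 4 libraries each, those numbered 2, and below in those numbered 1. CXCL2 was above CCL5 in 3 of 4. The order of these neighbours was thus not the same in every library. In number 1 of control and YTHDF1, CXCL10, the highest CXCR3 ligand, stood at 3.12 and 3.61 CPM per kb, below CXCL3 at 3.55 and 4.41. In number 2 CXCL10 stood at 9.88 and 9.15, above CXCL3 at 7.43 and 7.98.

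The question of the design was whether chemokine mRNA differed between control and YTHDF1‐overexpressed cells under IFN‐γ. No chemokine passed the test: 0 of 9 members tested were called with edgeR's quasi-likelihood test, where a call needed an adjusted p under 0.05 and a difference of 0.5 or more on the log2 scale in either direction, against 0% of the 17781 genes tested. YTHDF1 itself was thus not called, at 82.2 and 80.3 CPM in the control and 16489 and 2627 CPM in the YTHDF1 libraries. The lack of a call therefore does not show that the chemokines were alike between the vectors. At an unadjusted p, 0 of 9 members were called, against 0.101% of genes (18 genes). The members' unadjusted p ran from 0.504 to 0.976 and their adjusted p was 1 throughout. This fit holds no term for the replicate number, so differences between the numbers widen its error. With a block on the number, the unadjusted p by the same edgeR test ran from 0.0719 for CXCL8 to 0.809 for CXCL10. The values that follow are from the fit without the block.

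Among the CXCR3 ligands, CXCL9 had a log2 fold change, YTHDF1 minus control, of −0.20 (SE 0.67, 95% interval −2.13 to 1.73). CXCL10 had −0.026 (SE 0.80, interval −2.33 to 2.28). CXCL11 had −0.051 (SE 1.13, interval −3.33 to 3.23). The intervals of this fit, which holds no term for the replicate number, include a rise or a fall of more than 3-fold in each of these genes. Within numbers 1 and 2, the log2 CPM differences between the vectors were −0.32 and −0.15 for CXCL9, 0.21 and −0.11 for CXCL10 and −0.49 and 0.045 for CXCL11. By counting error alone, YTHDF1 replicate 1 held 0.712 times the CXCL11 of control replicate 1 (95% interval 0.513 to 0.984) and YTHDF1 replicate 2 held 1.03 times that of control replicate 2 (0.890 to 1.20), which compares libraries and not vectors.

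Among the neutrophil-attracting chemokines, the log2 fold change was 0.084 for CXCL8 (SE 0.48, interval −1.30 to 1.47) and 0.092 for CXCL1 (SE 0.52, interval −1.41 to 1.60). It was 0.17 for CXCL3 (SE 0.55, interval −1.40 to 1.75) and 0.35 for CXCL2 (SE 0.47, interval −1.02 to 1.72). These 4 genes were higher with YTHDF1 within both replicate numbers, by 0.033 and 0.12 for CXCL1, 0.20 and 0.44 for CXCL2, 0.31 and 0.10 for CXCL3 and 0.20 and 0.021 for CXCL8 on the log2 scale. With CCL20, 5 of the 9 members tested were higher within both numbers, against 25.9% of all genes tested, and CXCL9 was the 1 member lower within both, against 23.3%. By counting error alone, the ratio of YTHDF1 to control was above 1 in number 1 for CXCL8 (1.15, 95% interval 1.11 to 1.20) and CXCL3 (1.24, 1.04 to 1.49) and in number 2 for CXCL1 (1.09, 1.03 to 1.15) and CXCL2 (1.36, 1.07 to 1.74), and each of these intervals included 1 in the other number. The counts of members higher or lower are a description, and none of these differences passed the test. CCL5 had a log2 fold change of −0.035 (SE 0.84, interval −2.46 to 2.39), with −0.62 and 0.17 within numbers 1 and 2.

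By replicate number, 8 of the 9 members tested were called higher in the libraries numbered 2 and 0 lower, against 9.96% of all genes tested called higher and 16.2% called lower. The median log2 fold change, number 2 minus number 1, was 1.14 over the members and −0.012 over all genes tested. Each arm holds 1 control and 1 YTHDF1 library, and the difference between the arms has no label beyond the number. The p-values by number therefore measure the spread between the control and the YTHDF1 library of a number. They do not measure how a difference between numbers would vary if the numbers were repeated.

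CXCL11 had the largest rise of the members called, 4.52-fold (log2 2.18, SE 0.19, adjusted p = 1.99e-05 by edgeR's quasi-likelihood test). CXCL10 rose 2.83-fold (log2 1.50, SE 0.12, adjusted p = 1.31e-05 by the same edgeR test) and CXCL9 2.21-fold (log2 1.14, SE 0.22, adjusted p = 0.00248). CXCL11 was 3.82 times as high in replicate 2 as in replicate 1 of control (95% counting interval 3.03 to 4.84) and 5.53 times in YTHDF1 (4.26 to 7.28). CXCL10 was 3.17 times as high (2.71 to 3.71) in control and 2.54 times (2.19 to 2.95) in YTHDF1. Among the neutrophil-attracting genes, CXCL1 rose 1.99-fold (log2 0.99, SE 0.062, edgeR adjusted p = 2.78e-06), CXCL3 1.94-fold (log2 0.95, SE 0.14, adjusted p = 0.000492) and CXCL8 1.87-fold (log2 0.91, SE 0.062, adjusted p = 4.59e-06). CXCL2 rose 1.65-fold (log2 0.72, SE 0.22, edgeR adjusted p = 0.0231), a call that was lost with DESeq2's Wald test (adjusted p = 0.0679), with no filter on low counts (edgeR adjusted p = 0.0574), without control replicate 1 (0.0945) and without YTHDF1 replicate 2 (0.16). CCL5 rose 2.76-fold (log2 1.46, SE 0.24, edgeR adjusted p = 0.00102), by 2.14 times in control (counting interval 1.61 to 2.87) and 3.71 times in YTHDF1 (2.68 to 5.24). CCL20 was not called (edgeR adjusted p = 0.246), and was called only when YTHDF1 replicate 1 was left out (edgeR adjusted p = 0.0248), which leaves 0 counts in the arm numbered 1.

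**Figure D2:**
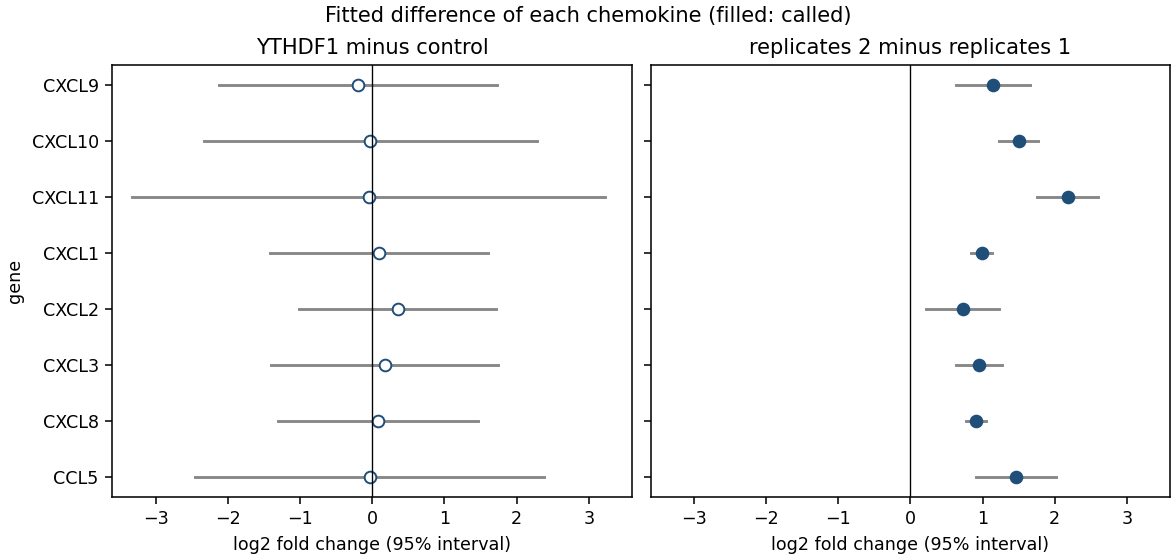
Log2 fold change (x axis, points) with 95% interval (bars) of 8 chemokines (y axis) for YTHDF1 minus control (left) and replicates 2 minus replicates 1 (right), with filled points for called genes. All 8 intervals include 0 on the left, and none does on the right, where CXCL11 lies farthest out at 2.18.

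To set the classes against each other, the CPM of the 3 CXCR3 ligands and of the 4 neutrophil-attracting chemokines were summed in each library. The CXCR3 ligand sum was 6.32 and 19.9 CPM in control replicates 1 and 2 and 6.23 and 19.1 CPM in YTHDF1 replicates 1 and 2. The neutrophil-attracting sum was 108.2 and 214.3 CPM in control replicates 1 and 2 and 121.9 and 221.9 CPM in YTHDF1 replicates 1 and 2. The CXCR3 ligand sum thus came to 5.84% (95% counting interval 5.25 to 6.48) and 9.30% (8.74 to 9.89) of the other in control and to 5.11% (4.59 to 5.68) and 8.59% (8.08 to 9.12) in YTHDF1. The ratio was lower with YTHDF1 within each replicate number, and lower in number 1 than in number 2 within each vector.

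On the log2 scale the mean ratio was −3.92 ± 0.529 (SD, n = 2) in YTHDF1 and −3.76 ± 0.475 (SD, n = 2) in control, a difference of −0.15 (two-sided exact permutation p = 0.667), with −0.19 and −0.12 within numbers 1 and 2. By replicate number the difference was 0.71, with 0.67 within control and 0.75 within YTHDF1 (two-sided exact permutation p = 0.333, the smallest that 2 libraries against 2 can give). Between the numbers the CXCR3 ligand sum rose 3.11-fold and the neutrophil-attracting sum 1.90-fold, while between the vectors they moved 0.971-fold and 1.08-fold. CXCL8 supplied 73.3% to 75.6% of the neutrophil-attracting counts in every library. Of the CXCR3 ligand counts, CXCL10 supplied 56.5% to 68.1%, CXCL11 18.3% to 33.0% and CXCL9 10.5% to 16.8%, and the share of CXCL11 was highest in the libraries numbered 2.

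**Figure D3:**
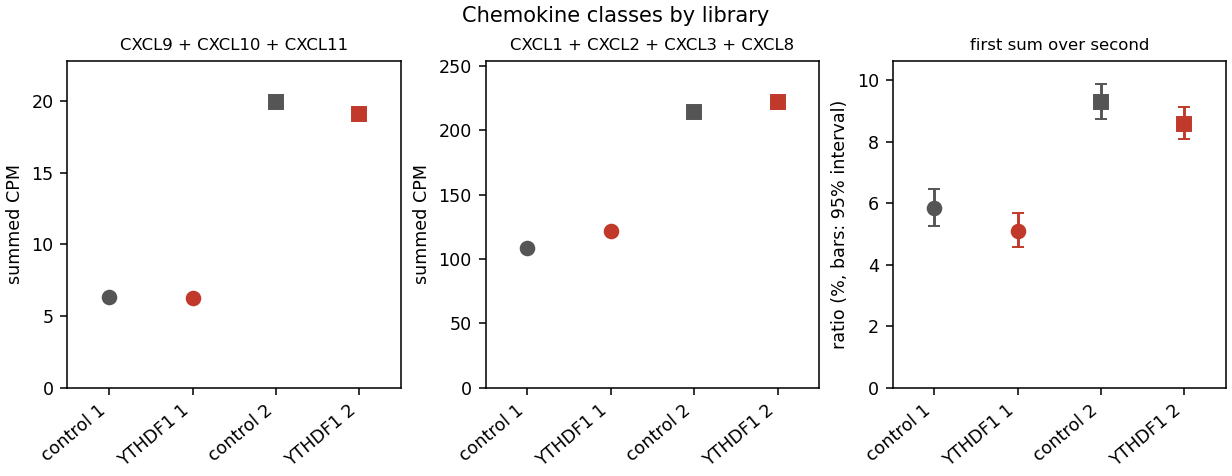
Summed CPM of the CXCR3 ligands (left) and of the neutrophil-attracting chemokines (middle), and the first as a percentage of the second (right, bars are 95% counting intervals), for control (grey) and YTHDF1 (red) libraries. Both sums are higher in the libraries numbered 2, and the percentage is 5.11 to 5.84 in number 1 and 8.59 to 9.30 in number 2.

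Of 36 other chemokine ligands, 17 had any count and 6 passed the filter on low counts. By vector 0 of the 6 were called, and by replicate number 3 were called higher, 1 lower and 2 not, beside 9.96% and 16.2% of all genes tested. CXCL5, a CXCR2 ligand whose gene lies among the neutrophil-attracting members on chromosome 4, stood at 45.3 and 92.7 CPM in control replicates 1 and 2 and at 46.6 and 99.0 CPM in YTHDF1 replicates 1 and 2 (log2 1.06, edgeR adjusted p = 4.84e-07). CX3CL1, a membrane-bound chemokine that binds CX3CR1, stood at 6.15 and 18.3 CPM in control replicates 1 and 2 and at 6.45 and 17.2 CPM in YTHDF1 replicates 1 and 2 (log2 1.50, edgeR adjusted p = 2.01e-06). CCL22, a CCR4 ligand, had 15 and 101 counts in control replicates 1 and 2 and 18 and 91 counts in YTHDF1 replicates 1 and 2 (log2 2.55, edgeR adjusted p = 0.00011). The exception was CXCL16, the ligand of CXCR6, which fell by 0.67 on the log2 scale, from 65.9 and 64.0 CPM in number 1 of control and YTHDF1 to 41.4 and 40.2 CPM in number 2 (edgeR adjusted p = 6.58e-06). Within the chromosomal span of the neutrophil-attracting members, PPBP had 175 to 203 counts, PF4V1 0 to 11, and CXCL6 and PF4 had 0 in all libraries. The chemokine receptors were all below 1 CPM, CXCR3 was at 0 counts in all 4 libraries, and 0 of the 7 tested were called higher and 2 lower by number, CXCR4 (13 and 18 counts in number 1, 0 and 0 in number 2) and CCR4 (9 to 50 counts).

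Genes of the pathways known to drive the chemokines were read beside them. Of 11 IFN‐γ signalling genes 0 were called by vector, and by number 2 were called higher, 0 lower and 9 not, beside 9.96% and 16.2% of all genes tested. JAK2, a kinase of the receptor, stood at 79.9 and 124.6 CPM in control replicates 1 and 2 and at 83.3 and 127.2 CPM in YTHDF1 replicates 1 and 2 (log2 0.63, edgeR adjusted p = 4.39e-06). IRF1 differed by 0.37 and STAT2 by 0.20 on the log2 scale, under the size asked for. The difference of JAK2 was smaller than those of all 8 chemokines called.

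Of 15 NF‐κB subunits and inhibitors 0 were called by vector, and by number 0 were called higher, 3 lower and 12 not, beside 9.96% and 16.2% of all genes tested, so the share called lower was near the background. The 3 were NFKBIB, an inhibitor that holds NF‐κB in the cytoplasm (−0.63, edgeR adjusted p = 0.00027), and the subunits REL (−0.58, edgeR adjusted p = 0.000297) and RELB (−0.52, edgeR adjusted p = 0.00324). RELA, the subunit with the highest level, was 0.27 higher on the log2 scale, under the size asked for. Of 8 factors that bind AU-rich messages, 1 was called lower by number, against 16.2% of all genes, ZFP36, which promotes decay of such messages and fell by 0.51 on the log2 scale (edgeR adjusted p = 0.00024). Of 12 inflammatory cytokines 6 were tested, with 1 called higher by number, 3 lower and 2 not, beside the same 9.96% and 16.2% of all genes. LIF, of the IL-6 family, stood at 154.2 and 254.4 CPM in control replicates 1 and 2 and at 152.0 and 250.0 CPM in YTHDF1 replicates 1 and 2 (log2 0.72, edgeR adjusted p = 7.1e-07). IL18, a cytokine that induces IFN‐γ in lymphocytes, stood at 29.8 and 2.13 CPM in control replicates 1 and 2 and at 26.8 and 1.62 CPM in YTHDF1 replicates 1 and 2 (log2 −3.92, edgeR adjusted p = 5.33e-08). The other genes called lower, TNF (0 to 46 counts) and CSF3 (0 to 11 counts), were near the limit of counting.

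**Figure D4:**
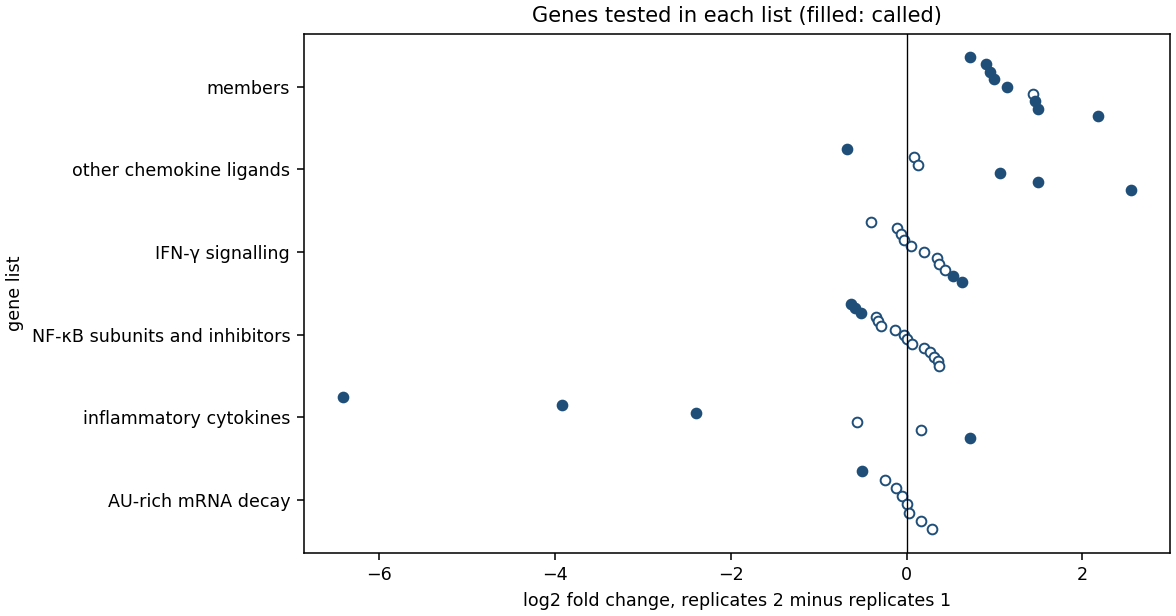
Log2 fold change by replicate number (x axis) of every tested gene of 6 lists (y axis), with filled points for called genes. The chemokine members all lie above 0, whereas the IFN‐γ signalling, NF‐κB and AU-rich decay lists lie between −0.63 and 0.63 and the cytokines run from −6.40 to 0.72.

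The label of gastric cancer cells was read against cell type markers, all 7 of the epithelial list being counted in every library. KRT8, an epithelial keratin, stood at 2215 and 3592 CPM in control replicates 1 and 2 and at 2080 and 3817 CPM in YTHDF1 replicates 1 and 2 (log2 0.79, edgeR adjusted p = 5.89e-06 by number), and KRT18, its partner, was higher by 1.01 in number 2. CLDN4, an epithelial tight junction protein, stood at 55.0 and 0.934 CPM in control replicates 1 and 2 and at 56.6 and 0.993 CPM in YTHDF1 replicates 1 and 2 (log2 −5.85, edgeR adjusted p = 1.26e-09). Of the 7 epithelial markers, 2 were called higher by number, 2 lower and 3 not, beside 9.96% and 16.2% of all genes tested. The 11 leukocyte markers summed to 7.03 to 8.09 CPM, mostly CD68, and 0 of the 4 tested were called by number. CD3D, MS4A1, FCGR3A and NKG7 were at 0 in all libraries. The fibroblast markers, mostly COL1A1, summed to 11.5 and 12.2 CPM in number 1 and 7.24 and 6.92 CPM in number 2. The endothelial markers summed to 1.21 and 1.15 CPM in number 1 and 0.300 and 0.232 CPM in number 2, with KDR, PECAM1 and TEK at 0 in number 2. The part of these differences in the chemokine values was not tested, and in bulk RNA more cells of a kind and more RNA per cell cannot be told apart.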

How the data were processed

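The authors deposited raw read counts per gene for 4 libraries. RNA was purified on columns and stranded poly(A) libraries were made. The submitters' processing notes name Trimmomatic, HISAT2 and GRCh38; the counting tool, strand setting and annotation are not given in the sources used here. In R 4.3.3, genes were kept by filterByExpr of edgeR 4.0.16 (17781 of 46427), scaled by TMM and compared by the quasi-likelihood test of edgeR, and p was adjusted over all of them (Benjamini-Hochberg). Called means a log2 difference of 0.5 or more in either direction with p under 0.05. CPM use TMM library sizes, and single-gene log2 CPM differences a prior count of 0.5. Two-library intervals are exact at 95% and cover counting error alone, as no molecular identifiers are described. Alternatives were DESeq2 1.42.0, limma 3.58.1 voom, other scalings and filters, a block on replicate number, YTHDF1 removed from library sizes, and leaving out each library. Transcript lengths and identical runs come from reference transcripts matched through RefSeq, and promoters from RefSeq GRCh38.p14. The procedure was tested on simulated data. For the vector comparison these held no difference by replicate number, so they do not show how the vector test fares on the real libraries. The members, the lists and the rule for named genes (all members, and per list up to 3 of highest mean CPM and up to 4 called with the smallest p) were chosen with earlier results of these data known; PPBP, PF4V1, CXCL6, PF4, CXCR3 and the markers at 0 were named after their values were seen. Some genes of the lists are not reported here. Plots used matplotlib 3.10.9 in Python 3.11.15.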

Additional observations from a re-analysis of the deposited data

Results flagged for a closer look

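For 3 chemokines the difference between the vectors had opposite signs in the libraries numbered 1 and in those numbered 2. CXCL10 was 0.21 higher with YTHDF1 on the log2 CPM scale in number 1 and differed by −0.11 in number 2. CXCL11 differed by −0.49 in number 1 and by 0.045 in number 2. CCL5 differed by −0.62 in number 1 and by 0.17 in number 2. Each value compares 1 library with 1 library, and whether the vector difference itself differs between the numbers was not tested. The level of YTHDF1 also differed, at 16489 CPM in YTHDF1 replicate 1 and 2627 CPM in YTHDF1 replicate 2. Its part in these signs was not tested. By counting error alone, the interval of the YTHDF1 to control ratio left out 1 for CXCL11 (0.712, 0.513 to 0.984) and for CCL5 (0.650, 0.441 to 0.951) in number 1, and included 1 for both genes in number 2 and for CXCL10 in both numbers.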

How the results depend on the processing

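The width of the intervals by vector depends on the model. The call of 0 members by vector held at an adjusted p under each alternative run. Over all genes, the count called by vector at an adjusted p was 3 with DESeq2's Wald test and 8 with the replicate block against 0, and at an unadjusted p it was 82 with no filter on low counts and 192 with the replicate block against 18. Libraries of a number deviated together from their group means (Pearson's r = 0.875 across 17781 genes, a hint from the data and not the design), and with the replicate block the members' unadjusted p ran from 0.0719 for CXCL8 to 0.809 for CXCL10, each with an edgeR adjusted p of 1. The SE of the log2 fold change by vector was then 0.236 for CXCL9 (−0.22), 0.126 for CXCL10 (0.031), 0.188 for CXCL11 (−0.17), 0.062 for CXCL1 (0.081) and 0.0533 for CXCL8 (0.11), against 0.668, 0.799, 1.13, 0.521 and 0.481 without the block. Of 62 member values by vector under other settings, 60 kept their direction and 2 reversed: CXCL10 was 0.068 with limma-voom and 0.031 with the replicate block.

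With 1 library left out the numbers are no longer balanced between the vectors, and the lone library is assumed to vary like the other arm. The count over all genes at an unadjusted p was then 46 to 59, and of members 0 to 1, the 1 without control replicate 2. The log2 fold change by vector ran from −0.96 to 0.43 for CXCL9, −0.86 to 1.03 for CXCL10, −1.76 to 1.22 for CXCL11, −0.52 to 0.64 for CXCL1, −0.13 to 0.71 for CXCL2, −0.32 to 0.80 for CXCL3, −0.39 to 0.67 for CXCL8, −1.28 to 0.62 for CCL5 and −0.074 to 6.34 for CCL20. The class ratio by vector ran from −0.53 to 0.22, so its direction is not stable. By replicate number, the members called were 7 to 9 (4216 to 4340 genes in all, against 4659), and of 62 member values under other settings 60 kept their call, the exceptions being those of CXCL2. The class ratio by number was 0.53 from mean log2 values and 0.88 without the most abundant gene of each class, against 0.71, and 0.61 to 0.81 with a library left out. The cause of these changes was not tested.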
